A study of Mus musculus with 9 samples.

Results

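The solute carriers are the membrane proteins that move amino acids, sugars, nucleosides, inorganic ions, metals, fatty acids and metabolites across the plasma membrane and the membranes of organelles. The members described here are the genes of the deposited count table whose symbol has the form Slc, a family number, the letter a and a member number, and whose level averaged at least 5 CPM, counts scaled to the library total, in 1 or more of 3 sorted lung cell populations. Of 317 such symbols among 19348 genes, 190 met the level, from 43 families. Transporters named by other schemes (the Slco family, and Slc35 members with letters other than a) lie outside this definition. Because members were chosen by their level in any population, a gene high in 1 population could enter through that population alone. The level was reached in all 3 populations by 162 members, in 2 by 16 and in 1 by 12.

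The study sorted lung cells of C57BL/6J mice of the genotype Col1_GFP;Foxf1_tdTomato, so every library comes from mice with both reporters, a green one for type I collagen and a red one for the forkhead factor Foxf1. DBL cells expressed both reporters (replicates 1, 3 and 4), ColGFP cells only the collagen reporter (replicates 1, 2 and 3) and TDonly cells only the Foxf1 reporter (replicates 1, 2 and 3). RNA-seq gave 1 library per replicate and 9 in all. The title of the series names Foxf1-specific expression in collagen I-positive mesenchymal cells as its subject. The age of the mice, the promoters that drive the reporters, the sort gates and whether replicates came from separate animals were not stated in any source at hand. The p-values therefore set the differences between populations against the spread of libraries within a population, and that spread may be technical.

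Solute carriers are grouped into families by sequence, and a family usually shares a substrate type. Many use the sodium, proton or chloride gradients that the sodium potassium ATPase and proton pumps maintain, and others exchange one solute for another or let a solute flow down its own gradient. In the lung, carriers of this group clear noradrenaline from blood passing through the capillaries, retrieve phosphate from the alveolar lining fluid, and supply fibroblasts with the amino acids that collagen synthesis uses.

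Library totals were 17820969 to 26147475 counts, of which the members took 1.01 to 1.27%. The sort genes Col1a1 and Foxf1 check the labels. Col1a1 read 9536, 12240 and 13220 CPM in DBL, 4937, 9590 and 9178 in ColGFP and 373, 1492 and 1565 in TDonly. Foxf1, listed under its older symbol Foxf1a, read 113, 87.3 and 103 CPM in DBL, 61.9, 62.5 and 54.5 in ColGFP and 279, 231 and 229 in TDonly, so it was present in every ColGFP library. The summed level of 12 endothelial markers was 4190.6 to 5433.4 CPM in DBL, 842.8 to 1164.5 in ColGFP and 11881.7 to 13616.4 in TDonly, and that of 12 fibroblast markers 34724.2 to 44986.2, 24794.8 to 40250.6 and 1490.7 to 5892.1. Marker transcripts of alveolar epithelium (4323.4 to 14216.4 CPM over 11 genes) and of leukocytes (1091.8 to 3419.0 CPM over the 11 of 12 genes in the table) were present in every library, and no marker listed for these 4 cell types and present in the table was at 0 in every library. In such bulk libraries, fewer cells of a type and less RNA per cell cannot be told apart. The replicate 1 libraries carry a separate run of sample numbers in the labels. TDonly replicate 1 had the lowest fibroblast sum, 1490.7 CPM against 5599.7 and 5892.1 in the other TDonly libraries, and ColGFP replicate 1 had the highest alveolar sum in its group, 12541.0 against 6365.6 and 4323.4.

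Levels below are CPM with TMM scaling factors, given per library in the order of the replicate numbers above, and differences are log2 fold changes ± standard error with adjusted p from the quasi-likelihood test of edgeR (Benjamini-Hochberg, over all 15550 genes tested). All 190 members were among the genes tested, and 125 passed at an adjusted p under 0.05 in 1 or more of the 3 comparisons. Of the members, 18 (9.47%) were higher and 34 (17.9%) lower in DBL than in ColGFP, where 9.86% and 8.04% of all genes that reached the same level were higher and lower, and 8.04% and 6.47% of all genes tested. Scaling by library totals gave 20 higher and 24 lower, and the replicate number as a block 11 and 22. In that block fit, DBL replicate 4 was alone in its block and did not add to the comparison. Leaving out ColGFP replicate 2 gave 12 higher and 21 lower, and leaving out ColGFP replicate 3 gave 12 and 24. With DBL replicate 1 or its replicate 4 removed 21 were lower, and with its replicate 3 removed 22. Against TDonly, 52 (27.4%) members were higher in DBL and 28 (14.7%) lower, beside 19.8% and 15.6% of the genes at that level and 17.3% and 12.6% of all genes tested. Between the single-reporter populations, 45 (23.7%) were higher in TDonly and 76 (40.0%) lower, beside 24.6% and 27.1% of the genes at that level and 21.6% and 24.0% of all genes tested. Whether the members' shares differ from these backgrounds was not tested, and the 3 comparisons share libraries.

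The median log2 fold change over the members was -0.04 for DBL over ColGFP, 0.10 for DBL over TDonly and -0.20 for TDonly over ColGFP, where the medians of all genes tested were 0.00, -0.04 and 0.02. Library totals moved these medians of all genes to 0.06, -0.13 and 0.16, and the members' medians to 0.02, 0.01 and -0.03, so small differences below are read relative to the other genes. Changes of at least 2-fold that passed the test numbered 10 higher and 17 lower in DBL than ColGFP, 27 and 12 for DBL against TDonly, and 24 and 42 for TDonly against ColGFP. The share of all genes with such changes was not counted, so these numbers have no background beside them. The libraries of the groups did not overlap for 91 members (47.9%) between DBL and ColGFP, 114 (60.0%) between DBL and TDonly and 133 (70.0%) between TDonly and ColGFP, where the shares over all genes tested were 33.3%, 47.0% and 56.1%, and 37.3%, 52.5% and 62.1% over the genes at the same level. Among the 179 members whose mean over the 9 libraries was at least 5 CPM, a choice that does not look at the populations, the counts were 16 higher and 32 lower, 47 and 26, and 42 and 69. In the 6 libraries of replicates other than 1, the counts were 40 and 46, 75 and 43, and 62 and 88. That fit had fewer libraries per population, all from 1 run of sample numbers. Its adjusted p values, here and below, measure differences against the spread within that run only. Shares of all genes were not counted for that fit or for genes chosen by their mean over all libraries. A rise or fall of these counts is therefore not read as particular to the members.

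**Figure D1:**
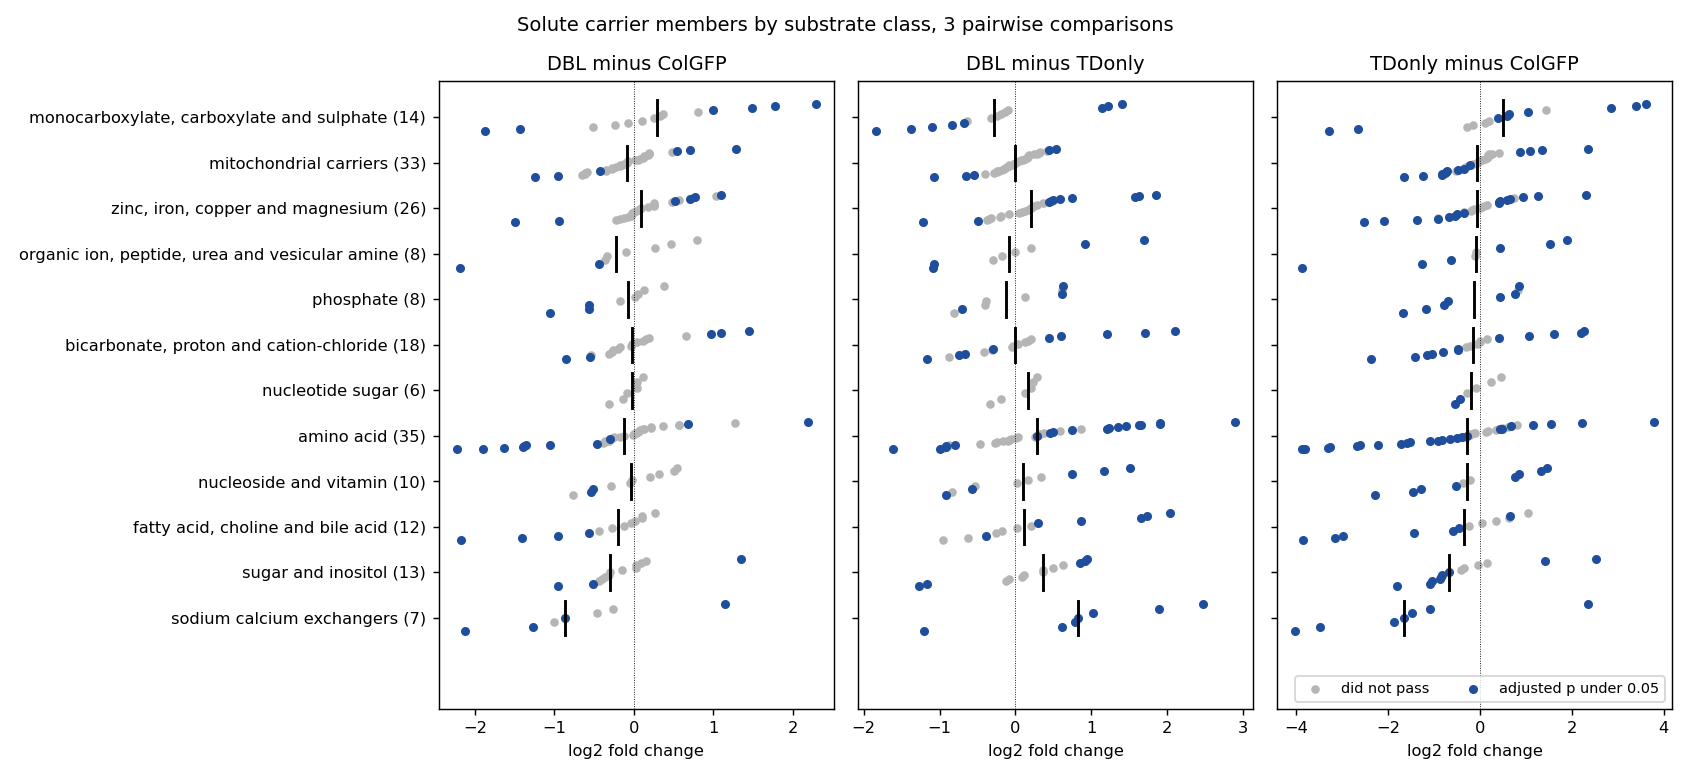
Log2 fold change of each of the 190 members (points) by substrate class, with the number of members in brackets, in the 3 comparisons; vertical bars are class medians and blue points passed at an adjusted p under 0.05. The 7 sodium calcium exchangers have the lowest class median between TDonly and ColGFP, -1.66, and the 14 monocarboxylate, carboxylate and sulphate transporters the highest, 0.49.

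Levels of different genes were compared per kilobase of exon. The phosphate transporter Slc34a2 had the highest mean over the 9 libraries, 340 CPM per kilobase, followed by Slc43a3 at 137, the zinc importer Slc39a1 at 92.1, the mitochondrial ADP/ATP carrier Slc25a5 at 85.0, and Slc3a2, the heavy chain that carries the Slc7 amino acid exchangers to the membrane, at 74.0. Slc43a3 is classed with the amino acid transporters by its family number only, which does not state its own substrate. Next came the glutamine transporter Slc38a2 at 60.9 and the taurine transporter Slc6a6 at 60.2. Slc25a5 and Slc39a1 have pseudogene copies, so reads of these genes could have been split in the counting. At the other end, the members just inside the level were the potassium-dependent sodium calcium exchanger Slc24a1, with 5.12 CPM of library totals in ColGFP, and the intestinal folate transporter Slc46a1, with 5.36 in ColGFP. Slc47a1 at 4.94 in ColGFP and Slc6a17 at 4.95 in DBL lay just outside it.

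A single member, Slc16a1, was higher in DBL than in both other populations, and a single member, Slc6a6, was lower than in both. Over 18 alternative fits these counts ranged from 0 to 3 higher and from 0 to 2 lower. In the 6 libraries of replicates other than 1 they were 3 (with Slc4a4 and Slc43a1) and 2 (with Slc43a2), and without TDonly replicate 1 they were 3 (with Slc4a4 and Slc41a2) and 2 (with Slc43a2). Slc16a1 was not among them without ColGFP replicate 3, nor Slc6a6 in the 9 fits that ended its call against ColGFP. Slc4a4 and Slc43a2 were named after their values were seen. Over all genes tested, 0.868% were higher and 0.206% lower in this way. Slc16a1 encodes MCT1, the proton-coupled transporter of lactate, pyruvate and ketone bodies. It lies on chromosome 3 (GRCm38, 104638668 to 104658462, plus strand) and read 97.3, 85.9 and 71.9 CPM in DBL, 41.4, 45.6 and 41.5 in ColGFP and 24.7, 47.2 and 43.9 in TDonly. Every DBL library lay above every other library, and ColGFP and TDonly overlapped. The log2 fold change was 0.99 ± 0.22 (adjusted p = 0.0141) over ColGFP and 1.14 ± 0.22 (adjusted p = 0.00341) over TDonly, while TDonly over ColGFP was -0.15 ± 0.22 (adjusted p = 0.603). Without ColGFP replicate 3 the adjusted p against ColGFP was 0.0632, and in the 6 libraries of replicates other than 1 the 2 differences were 0.87 and 0.83. The summed level of 7 mesothelial markers was also highest in DBL, at 574.7 to 666.0 CPM against 124.4 to 187.4 in ColGFP and 87.62 to 295.2 in TDonly, with 6 of the 7 higher in DBL in both comparisons. The part of these cells in the Slc16a1 level was not tested.

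The partner chaperone of MCT1, Bsg (basigin), named after its values were seen, read 215, 207 and 225 CPM in DBL, 183, 178 and 182 in ColGFP and 148, 181 and 173 in TDonly, with log2 fold changes of 0.25 ± 0.10 (adjusted p = 0.12) over ColGFP and 0.37 ± 0.10 (adjusted p = 0.0171) over TDonly. The 250 bases before the RefSeq start of Slc16a1 (GRCm38.p6, plus strand, chr3:104638414-104638663) are shown because Slc16a1 is the member that DBL had above both populations, and because the cells were sorted on a forkhead factor. Capitals mark the E-box CACGTG, a palindrome.
Slc16a1 promoter: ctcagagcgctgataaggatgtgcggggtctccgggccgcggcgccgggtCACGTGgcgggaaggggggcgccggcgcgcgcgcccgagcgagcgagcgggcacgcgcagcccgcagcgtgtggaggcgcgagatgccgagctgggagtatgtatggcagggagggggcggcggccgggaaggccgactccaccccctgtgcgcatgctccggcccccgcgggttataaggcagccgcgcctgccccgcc
The window holds 1 E-box, with its first base at position -200 counted back from the start, and no match to the forkhead sequence GTAAACA on either strand. An E-box of this form is in 6.02% of 32851 RefSeq mouse promoter windows of this length and in 12.2% of the 189 windows of members, and GTAAACA or its complement in 3.17% and 1.06%. A match describes letters only.

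Slc6a6, the sodium- and chloride-dependent taurine transporter, lies on chromosome 6 (GRCm38, 91684053 to 91759066, plus strand). It read 342, 361 and 372 CPM in DBL, 583, 451 and 452 in ColGFP and 625, 706 and 687 in TDonly. Every DBL library lay below every library of the other populations, and ColGFP lay below TDonly without overlap. The log2 fold change was -0.47 ± 0.12 (adjusted p = 0.0322) over ColGFP and -0.91 ± 0.12 (adjusted p = 0.000551) over TDonly, and 0.44 ± 0.12 (adjusted p = 0.0155) for TDonly over ColGFP. The difference from ColGFP passed the threshold narrowly, and 9 of 18 alternative fits gave adjusted p from 0.0543 to 0.117, among them the fits without any 1 of the 3 DBL libraries, without ColGFP replicate 1, without TDonly replicate 2 and without TDonly replicate 3. The TDonly over ColGFP difference was lost without ColGFP replicate 2, without ColGFP replicate 3 and without TDonly replicate 2 (adjusted p 0.0561 to 0.0858).

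**Figure D2:**
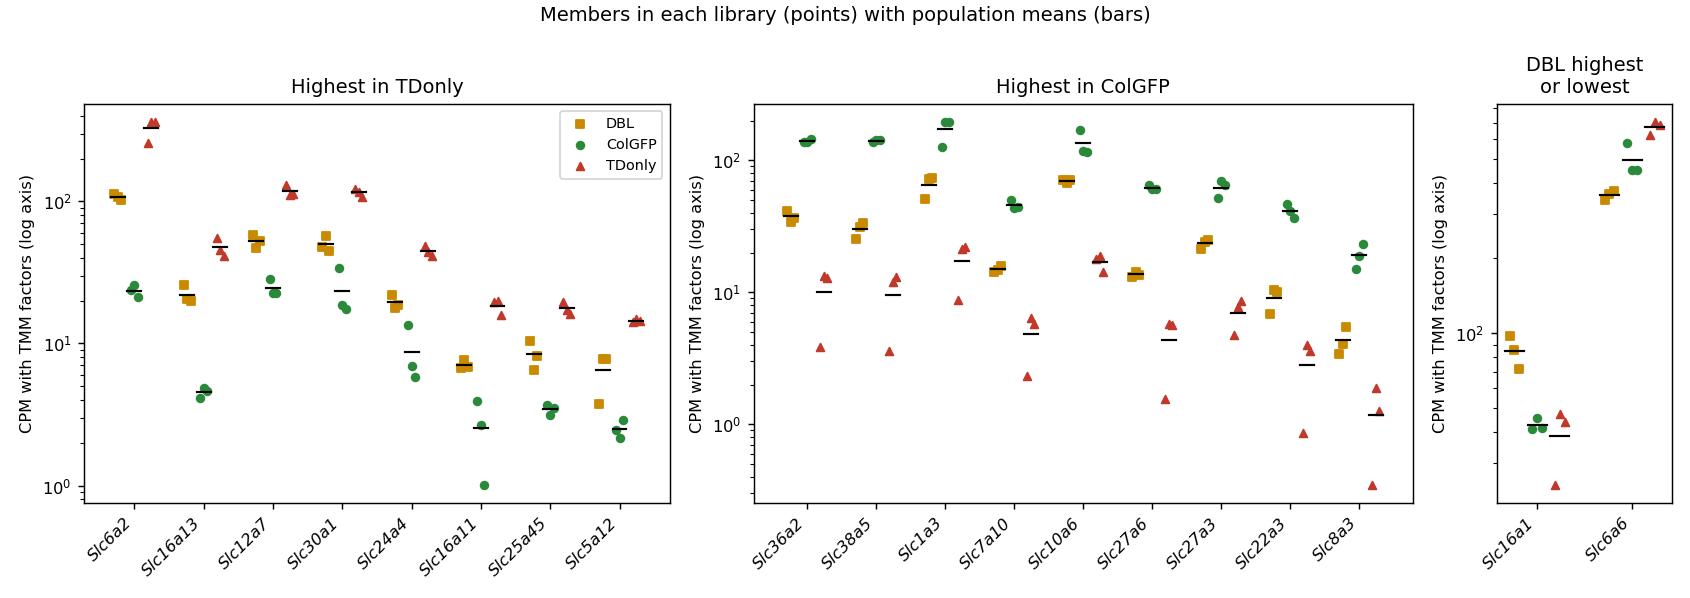
Members in each library (points; DBL squares, ColGFP circles, TDonly triangles) with population means (bars), as CPM with TMM factors on log axes, for members highest in TDonly, members highest in ColGFP, and the 2 members that DBL had above or below both. The DBL libraries of Slc6a2 lie between the other populations at 102 to 112 CPM, those of Slc16a1 lie above both, and TDonly replicate 1 is the lowest library for 8 of the 9 members highest in ColGFP.

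Transporters of amino acids and related amines formed the largest class, 35 members. Against ColGFP, 2 were higher and 9 lower in DBL. Against TDonly, 13 were higher and 5 lower, and between TDonly and ColGFP 7 were higher and 17 lower in TDonly. The highest fold in favour of TDonly was that of Slc6a2, the noradrenaline transporter by which pulmonary capillary cells clear the amine, on chromosome 8 (GRCm38, 92960079 to 93001667, plus strand). It read 112, 108 and 102 CPM in DBL, 23.7, 25.9 and 21.1 in ColGFP and 259, 363 and 363 in TDonly. The 3 populations did not overlap, with TDonly high, ColGFP low and DBL between. The log2 fold change was 3.80 ± 0.16 (adjusted p = 2.69e-07) for TDonly over ColGFP, 2.19 ± 0.15 (adjusted p = 2.42e-05) for DBL over ColGFP and -1.61 ± 0.14 (adjusted p = 8.29e-05) for DBL over TDonly. The endothelial marker sum given above had the same order of populations, and its part in the Slc6a2 level was not tested.

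The heavy chain Slc3a2 read 265, 194 and 209 CPM in DBL, 167, 176 and 177 in ColGFP and 423, 362 and 378 in TDonly. TDonly was above both other populations without overlap (1.16 ± 0.13, adjusted p = 6.28e-05 over ColGFP), and DBL over ColGFP was 0.36 ± 0.13 (adjusted p = 0.0964). Of the 9 Slc7 members, which include its light chains and carriers that do not pair with it, 2 were higher and 3 lower in TDonly than ColGFP. Slc7a6, the light chain of a cationic and neutral amino acid exchanger, read 53.1, 51.8 and 59.3 CPM in DBL, 70.4, 63.9 and 68.2 in ColGFP and 23.5, 23.7 and 23.6 in TDonly, with a narrow spread in each population. It was lower in TDonly than in ColGFP (-1.52 ± 0.09, adjusted p = 1.19e-06) and higher in DBL than in TDonly (1.21 ± 0.09, adjusted p = 5.42e-05). Slc7a10, the exchanger of small neutral amino acids Asc-1, was highest in ColGFP, with 50.5, 43.2 and 44.7 CPM against 14.2, 14.8 and 15.8 in DBL and 2.34, 6.41 and 5.71 in TDonly. Its exons overlap Lrp3 on the other strand, and the strand setting of the counting was not stated. How reads in the shared stretch were counted is therefore not known.

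Several amino acid carriers were highest in ColGFP and lowest in TDonly. Slc36a2, a proton-coupled transporter of glycine, alanine and proline on chromosome 11 (GRCm38, 55158470 to 55185077, minus strand), read 41.5, 34.3 and 36.8 CPM in DBL, 138, 137 and 145 in ColGFP and 3.86, 13.3 and 12.8 in TDonly. ColGFP was high, DBL intermediate and TDonly low, without overlap. The log2 fold change was -1.90 ± 0.35 (adjusted p = 0.00563) for DBL over ColGFP, 1.91 ± 0.36 (adjusted p = 0.00295) for DBL over TDonly and -3.81 ± 0.38 (adjusted p = 3.36e-05) for TDonly over ColGFP. Slc38a5, a sodium-coupled glutamine transporter that works with proton exchange, read 25.4, 31.4 and 33.4 CPM in DBL, 137, 143 and 142 in ColGFP and 3.58, 11.9 and 13.2 in TDonly, in the same order and again without overlap. Its differences were -2.23 ± 0.36 (adjusted p = 0.0031), 1.66 ± 0.37 (adjusted p = 0.00755) and -3.88 ± 0.39 (adjusted p = 3.72e-05). Slc1a3, the glutamate transporter GLAST, read 51.0, 72.0 and 72.9 CPM in DBL, 126, 196 and 194 in ColGFP and 8.69, 21.3 and 22.1 in TDonly, and TDonly over ColGFP was -3.31 ± 0.35 (adjusted p = 4.82e-05). DBL over ColGFP for Slc1a3 was -1.39 ± 0.32 (adjusted p = 0.0181), which was lost without any 1 DBL library, without ColGFP replicate 2 and without ColGFP replicate 3 (adjusted p 0.0516 to 0.0672).

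A further pair of amino acid carriers had like levels in DBL and ColGFP and a low level in TDonly. Slc43a1, the large neutral amino acid transporter LAT3, read 19.0, 23.8 and 28.1 CPM in DBL, 22.1, 19.1 and 19.9 in ColGFP and 2.14, 3.36 and 3.999 in TDonly, so DBL and ColGFP overlapped and all TDonly libraries lay below them. DBL over TDonly was 2.90 ± 0.23 (adjusted p = 6.33e-05), and DBL over ColGFP was 0.22 ± 0.21 (adjusted p = 0.575). Slc1a5, the neutral amino acid exchanger ASCT2 that brings in glutamine, read 181, 191 and 213 CPM in DBL, 196, 227 and 218 in ColGFP and 58.5, 77.2 and 77.7 in TDonly. DBL over TDonly was 1.46 ± 0.13 (adjusted p = 8.5e-05), and DBL over ColGFP -0.13 ± 0.13 (adjusted p = 0.579). The members of the class with the highest counts beside Slc6a6 differed little: Slc43a3, in the class by its family number, had a range of 511 to 688 CPM over the 9 libraries and Slc38a2 one of 449 to 640, and neither passed in any comparison. In the 6 libraries of replicates other than 1, both passed for TDonly over ColGFP, against the spread within that run of sample numbers only. The values were -0.39 (adjusted p = 0.000143) for Slc43a3 and -0.47 (adjusted p = 8.17e-06) for Slc38a2. Slc38a2 was also higher in DBL than TDonly there (0.49, adjusted p = 8.11e-06).

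In members that were low in TDonly, TDonly replicate 1 was often the lowest library of its group. Of the 19 members at least 4-fold lower in TDonly than in ColGFP, TDonly replicate 1 was the lowest TDonly library for 17, and of the 69 members that did not pass in that comparison it was the lowest for 31. The 19 were chosen by fold changes that include this library, so a low value in it helped a member to enter. The share over all genes was not counted. The same library had the lowest fibroblast marker sum. The part of that difference in the member levels was not tested.

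Among the 14 monocarboxylate, carboxylate and sulphate transporters, 4 were higher and 2 lower in DBL than ColGFP, 3 higher and 5 lower in DBL than TDonly, and 7 higher and 2 lower in TDonly than ColGFP. Slc16a13, an orphan member of the monocarboxylate family, read 25.9, 20.5 and 19.8 CPM in DBL, 4.11, 4.84 and 4.62 in ColGFP and 55.4, 45.8 and 41.0 in TDonly. TDonly was high and ColGFP low without overlap, with DBL between them. The differences were 2.29 ± 0.16 (adjusted p = 2.88e-05) for DBL over ColGFP, -1.10 ± 0.15 (adjusted p = 0.00049) for DBL over TDonly and 3.39 ± 0.16 (adjusted p = 5.39e-07) for TDonly over ColGFP. Its neighbour on the chromosome, Slc16a11 of the same family, read 6.71, 7.66 and 6.86 CPM in DBL, 3.93, 2.66 and 1.02 in ColGFP and 19.5, 19.9 and 15.8 in TDonly, with TDonly over ColGFP at 2.85 ± 0.37 (adjusted p = 0.000169). The 2 genes lie on chromosome 11 (GRCm38), Slc16a11 at 70212752 to 70216417 on the plus strand and Slc16a13 at 70216789 to 70221064 on the minus strand, so their 3′ ends face each other across 371 bases. With the strand setting not given, reads past either 3′ end cannot be told apart from reads of the neighbour. The Slc16a11 calls for DBL were lost in some fits, against ColGFP without DBL replicate 3 and without ColGFP replicate 2, and against TDonly without DBL replicate 4 (adjusted p 0.0505 to 0.0741 with the replicate block included).

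Slc16a9, a transporter of carnitine and other carboxylates, read 91.0, 105 and 104 CPM in DBL, 112, 124 and 118 in ColGFP and 154, 189.7 and 191 in TDonly, higher in TDonly than in DBL (-0.84 ± 0.11, adjusted p = 0.000446 for DBL over TDonly). Slc26a10 read 11.4, 8.49 and 9.10 CPM in TDonly, 2.67, 2.34 and 3.07 in DBL and 0.805, 1.09 and 0.508 in ColGFP. It overlaps B4galnt1 on the other strand, and how reads in the shared stretch were counted is not known. The sulphate transporter Slc13a4 went the other way at low levels, with 6.30, 6.05 and 7.02 CPM in ColGFP, 1.41, 1.98 and 1.86 in DBL and 0.351, 0.881 and 0.747 in TDonly, and TDonly over ColGFP was -3.29 ± 0.32 (adjusted p = 2.94e-05). The sulphate transporter Slc26a2, which supplies proteoglycan sulphation, read 28.4, 35.4 and 34.7 CPM in DBL, 30.3, 24.7 and 23.6 in ColGFP and 37.6, 43.4 and 41.6 in TDonly, with TDonly over ColGFP at 0.64 ± 0.13 (adjusted p = 0.00283).

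The 7 sodium calcium exchangers move calcium in exchange for sodium, and those of family 24 other than Slc24a6 also move potassium. In TDonly, 6 were lower and 1 higher than in ColGFP (median log2 fold change -1.66). DBL had 6 higher and 1 lower than TDonly (median 0.83), and 1 higher and 3 lower than ColGFP (median -0.87). Of the 6 calls against TDonly, that of Slc24a1 was lost in 7 of 18 alternative fits (adjusted p 0.0519 to 0.113) and that of Slc24a3 in 9 (adjusted p 0.0589 to 0.12), in both cases with library totals, with the replicate block and without any 1 of DBL replicate 3, DBL replicate 4, TDonly replicate 1 and TDonly replicate 3. Leaving out DBL replicate 1 or ColGFP replicate 2 also ended the Slc24a3 call. Slc8a1, the widespread plasma membrane exchanger NCX1, read 102, 106 and 92.1 CPM in DBL, 188, 180.3 and 179 in ColGFP and 49.5, 61.8 and 62.5 in TDonly. The populations did not overlap, with ColGFP high, DBL between and TDonly low, and the differences were -0.87 ± 0.11 (adjusted p = 0.000626), 0.79 ± 0.11 (adjusted p = 0.000563) and -1.66 ± 0.11 (adjusted p = 2.93e-06) for DBL over ColGFP, DBL over TDonly and TDonly over ColGFP. Slc8a3, an exchanger known from muscle and brain, had the same order at lower levels, 15.0, 18.9 and 23.3 CPM in ColGFP, 3.43, 4.10 and 5.49 in DBL and 0.351, 1.88 and 1.27 in TDonly, and TDonly over ColGFP was -4.03 ± 0.46 (adjusted p = 7.43e-05). Slc8a2 read 8.85, 7.01 and 7.57 CPM in ColGFP, 3.12, 4.01 and 4.52 in DBL and 0.584, 1.16 and 0.308 in TDonly. For it, DBL over TDonly was 2.48 ± 0.38 (adjusted p = 0.000991), and 3.09 without TDonly replicate 2.

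The exception was Slc24a4, which read 21.8, 17.9 and 18.7 CPM in DBL, 13.5, 6.95 and 5.82 in ColGFP and 48.7, 44.3 and 41.0 in TDonly. Here TDonly was high, and DBL over ColGFP was 1.15 ± 0.27 (adjusted p = 0.019), DBL over TDonly -1.20 ± 0.26 (adjusted p = 0.00691) and TDonly over ColGFP 2.35 ± 0.27 (adjusted p = 9.21e-05). The call against ColGFP was lost without DBL replicate 1, without ColGFP replicate 2 and without ColGFP replicate 3 (adjusted p 0.0591 to 0.0802). Slc24a3 read 21.9, 24.0 and 23.7 CPM in DBL, 66.1, 52.3 and 49.1 in ColGFP and 10.6, 18.9 and 15.9 in TDonly, again highest in ColGFP, with TDonly over ColGFP at -1.88 ± 0.20 (adjusted p = 5.06e-05). The mitochondrial exchanger Slc24a6 (now named Slc8b1) read 39.5, 50.7 and 55.7 CPM in DBL, 47.4, 62.9 and 64.9 in ColGFP and 25.1, 27.4 and 29.4 in TDonly, with DBL over TDonly at 0.83 ± 0.16 (adjusted p = 0.00318). The summed level of 10 smooth muscle and pericyte markers was 1333.5 to 2464.0 CPM in ColGFP, 1134.4 to 1310.8 in DBL and 273.0 to 391.9 in TDonly, and its part in the exchanger levels was not tested.

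Of 18 bicarbonate, proton and cation-chloride transporters, 3 were higher and 2 lower in DBL than ColGFP, 5 higher and 4 lower in DBL than TDonly, and 5 higher and 7 lower in TDonly than ColGFP. Slc12a7, the potassium chloride cotransporter KCC4, read 57.5, 47.2 and 52.6 CPM in DBL, 28.2, 22.6 and 22.8 in ColGFP and 131, 111 and 113 in TDonly. TDonly was high, DBL between and ColGFP low, without overlap, and the differences were 1.10 ± 0.12 (adjusted p = 0.000362), -1.17 ± 0.12 (adjusted p = 0.000154) and 2.27 ± 0.13 (adjusted p = 1.07e-06) in the order DBL over ColGFP, DBL over TDonly and TDonly over ColGFP. The related KCC1, Slc12a4, went the other way by less, at 155, 146 and 147 CPM in DBL, 141, 162 and 159.6 in ColGFP and 125, 109 and 98.1 in TDonly, with TDonly over ColGFP at -0.48 ± 0.11 (adjusted p = 0.00502). Slc12a2, the sodium potassium chloride cotransporter NKCC1, read 88.5, 124 and 99.0 CPM in DBL, 154, 117 and 101 in ColGFP and 128, 151 and 136 in TDonly and passed in no comparison. In the 6 libraries of replicates other than 1, Slc12a2 was highest in TDonly. There, TDonly over ColGFP was 0.37 (adjusted p = 0.00599) and DBL over TDonly -0.32 (adjusted p = 0.0182).

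Slc4a8, a sodium-driven chloride bicarbonate exchanger, read 6.52, 8.65 and 9.85 CPM in DBL, 3.49, 2.96 and 2.68 in ColGFP and 13.5, 14.2 and 14.2 in TDonly, with TDonly over ColGFP at 2.20 ± 0.19 (adjusted p = 1.26e-05) and DBL over ColGFP at 1.45 ± 0.19 (adjusted p = 0.000743). Slc4a3, the anion exchanger AE3, was low in TDonly, where it read 5.38, 7.09 and 8.61 CPM against 31.4, 30.8 and 27.8 in DBL and 31.1, 39.1 and 39.3 in ColGFP. DBL over TDonly was 2.10 ± 0.17 (adjusted p = 7.06e-05), and DBL over ColGFP -0.28 ± 0.16 (adjusted p = 0.322). The erythrocyte anion exchanger Slc4a1, one of the listed erythrocyte markers, read 0.495, 7.66 and 9.93 CPM in DBL, 2.46, 11.7 and 12.2 in ColGFP and 1.05, 10.9 and 10.4 in TDonly, so the replicate 1 library was the lowest of each population.

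The sodium gradient used by many of these carriers comes from the sodium potassium ATPase, of whose 13 tested subunits and regulators 7 were higher and 2 lower in DBL than TDonly, and 3 higher and 6 lower in TDonly than ColGFP. The regulatory subunit Fxyd6 read 44.6, 34.1 and 39.8 CPM in DBL, 64.4, 68.8 and 77.9 in ColGFP and 5.49, 8.29 and 8.66 in TDonly, lowest in TDonly (-3.23 ± 0.19, adjusted p = 1.25e-06 over ColGFP). Of 17 tested chaperones, scaffolds and kinases that act on solute carriers, 10 were higher and 1 lower in TDonly than ColGFP, and 4 were higher in DBL than ColGFP. The scaffold Slc9a3r2 (NHERF2), which is no transporter in spite of its symbol, read 189, 176 and 187 CPM in DBL, 63.1, 56.1 and 50.4 in ColGFP and 497, 483 and 468 in TDonly. Its difference for TDonly over ColGFP was 3.09 ± 0.11 (adjusted p = 1.77e-07). The related scaffold Slc9a3r1 read 60.2, 45.1 and 50.02 CPM in DBL, 19.3, 21.8 and 18.3 in ColGFP and 25.7, 43.4 and 40.0 in TDonly. For this gene, DBL over ColGFP was 1.39 ± 0.20 (adjusted p = 0.00133) and DBL over TDonly at 0.51 ± 0.19 (adjusted p = 0.072).

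Among 13 members classed by family number as sugar and inositol transporters, 1 was higher and 2 lower in DBL than ColGFP, 3 higher and 2 lower in DBL than TDonly, and 2 higher and 7 lower in TDonly than ColGFP. The member higher in DBL than ColGFP was Slc5a12, and those higher in TDonly than ColGFP were Slc5a12 and Slc2a9. These are described below as transporters of lactate and urate. The glucose transporter Slc2a1 (GLUT1) read 43.7, 36.8 and 44.2 CPM in DBL, 35.7, 58.2 and 59.7 in ColGFP and 44.8, 33.8 and 37.1 in TDonly and passed in no comparison. In the 6 libraries of replicates other than 1, it was lower than ColGFP in both other populations. There, DBL over ColGFP was -0.53 (adjusted p = 0.000607) and TDonly over ColGFP -0.76 (adjusted p = 5.42e-06). Slc2a13, which takes up myo-inositol with protons, read 26.1, 22.2 and 19.6 CPM in DBL, 41.5, 43.9 and 46.8 in ColGFP and 10.9, 13.3 and 13.5 in TDonly. ColGFP was high, DBL between and TDonly low without overlap, and the differences were -0.96 ± 0.13 (adjusted p = 0.00115), 0.85 ± 0.13 (adjusted p = 0.00118) and -1.81 ± 0.14 (adjusted p = 6.09e-06) in the same order of comparisons. Slc2a10 (GLUT10), whose loss disturbs arterial connective tissue, read 23.5, 27.0 and 30.2 CPM in DBL, 25.5, 30.5 and 33.9 in ColGFP and 13.1, 14.3 and 14.6 in TDonly, lower in TDonly than in both other populations (0.94 ± 0.14, adjusted p = 0.000776 for DBL over TDonly). Slc2a9, a urate transporter, was highest in TDonly, at 23.8, 16.7 and 18.7 CPM against 8.92, 7.16 and 8.48 in DBL and 8.58, 6.71 and 6.83 in ColGFP. Slc5a12, a sodium-coupled lactate transporter, read 3.77, 7.75 and 7.83 CPM in DBL, 2.46, 2.18 and 2.91 in ColGFP and 14.1, 14.8 and 14.5 in TDonly, with TDonly over ColGFP at 2.52 ± 0.27 (adjusted p = 5.81e-05). Of 22 tested glucose handling enzymes, 5 were higher and 3 lower in TDonly than ColGFP. The hexokinase Hk1 read 102, 80.1 and 87.5 CPM in DBL, 54.9, 60.6 and 61.2 in ColGFP and 157, 116 and 119 in TDonly.

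Of the 12 fatty acid, choline and bile acid transporters, 0 were higher and 4 lower in DBL than ColGFP, and 1 was higher and 6 lower in TDonly than ColGFP, while 5 were higher and 1 lower in DBL than TDonly. The count of 0 from edgeR was also 0 at an unadjusted p under 0.05, by DESeq2 and by limma-voom. Slc10a6, which takes up sulphated steroids, read 71.2, 67.5 and 70.7 CPM in DBL, 171, 117 and 116 in ColGFP and 17.8, 18.7 and 14.3 in TDonly. The populations did not overlap, and the differences were -0.95 ± 0.16 (adjusted p = 0.00358), 2.04 ± 0.17 (adjusted p = 6.88e-05) and -2.99 ± 0.17 (adjusted p = 1.24e-06) for DBL over ColGFP, DBL over TDonly and TDonly over ColGFP. Slc27a6, a long-chain fatty acid transport protein known from heart, read 13.2, 14.4 and 13.5 CPM in DBL, 65.4, 60.8 and 60.4 in ColGFP and 1.56, 5.81 and 5.62 in TDonly. Slc27a3 of the same family read 21.5, 23.9 and 24.9 CPM in DBL, 52.3, 69.4 and 64.8 in ColGFP and 4.71, 7.81 and 8.57 in TDonly. Both were highest in ColGFP and lowest in TDonly without overlap, with TDonly over ColGFP at -3.85 ± 0.38 (adjusted p = 3.15e-05) and -3.15 ± 0.22 (adjusted p = 3.51e-06). Slc27a4 read 34.3, 35.0 and 43.0 CPM in DBL, 33.8, 37.7 and 44.2 in ColGFP and 30.6, 33.5 and 33.4 in TDonly and passed in no comparison. Its mean CPM over the 9 libraries was the highest of family 27. Per kilobase of exon it lay below Slc27a3 and Slc27a6, at 8.20 against 12.0 and 10.8. The choline transporter-like Slc44a2 read 230.1, 203 and 216 CPM in DBL, 256, 218 and 235 in ColGFP and 234, 244 and 255 in TDonly and likewise passed in no comparison. In the 6 libraries of replicates other than 1, Slc27a4 passed for TDonly over ColGFP (-0.32, adjusted p = 0.024). Slc44a2 passed there for DBL over TDonly (-0.21, adjusted p = 0.0264).

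Metal transporters numbered 26. Of these, 4 were higher and 2 lower in DBL than ColGFP, 8 higher and 2 lower in DBL than TDonly, and 8 higher and 8 lower in TDonly than ColGFP. Slc30a1 (ZnT1), which exports zinc from the cell and is a textbook target of the zinc-sensing factor MTF-1, read 47.7, 57.0 and 44.5 CPM in DBL, 33.9, 18.7 and 17.6 in ColGFP and 122, 117 and 108 in TDonly. TDonly was high, DBL between and ColGFP low, without overlap, and the differences were 1.09 ± 0.23 (adjusted p = 0.0113) for DBL over ColGFP, -1.22 ± 0.23 (adjusted p = 0.00279) for DBL over TDonly and 2.31 ± 0.23 (adjusted p = 3.8e-05) for TDonly over ColGFP. Without ColGFP replicate 2 the adjusted p against ColGFP was 0.0528. The zinc-binding metallothioneins, the best known targets of MTF-1, had another order: Mt1 read 180.5, 115 and 153 CPM in DBL, 134, 117 and 123 in ColGFP and 15.3, 23.4 and 23.6 in TDonly. Mt2 read 214, 90.8 and 110.0 CPM in DBL, 76.7, 79.0 and 72.7 in ColGFP and 10.2, 14.4 and 17.9 in TDonly. Both were lowest in TDonly, with DBL over TDonly at 2.85 ± 0.21 (adjusted p = 5.49e-05) for Mt1 and 3.29 ± 0.33 (adjusted p = 0.000135) for Mt2, and neither passed between DBL and ColGFP (adjusted p = 0.45 and 0.0949).

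Their promoters are shown because genes known to share a regulator had different orders of level. Each is the 250 bases before the RefSeq start (GRCm38.p6, plus strand): Slc30a1 at chr1:191906531-191906780, Mt1 at chr8:94178839-94179088 and Mt2 at chr8:94172368-94172617. Capitals mark matches to the core of the metal response element, searched as TGCACNC and TGCGCNC on both strands.
Slc30a1 promoter: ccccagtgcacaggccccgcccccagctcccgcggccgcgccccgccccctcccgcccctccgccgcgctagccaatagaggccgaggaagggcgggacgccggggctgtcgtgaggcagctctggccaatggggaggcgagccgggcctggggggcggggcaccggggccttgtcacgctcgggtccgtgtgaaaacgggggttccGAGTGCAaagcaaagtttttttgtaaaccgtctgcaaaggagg
Mt1 promoter: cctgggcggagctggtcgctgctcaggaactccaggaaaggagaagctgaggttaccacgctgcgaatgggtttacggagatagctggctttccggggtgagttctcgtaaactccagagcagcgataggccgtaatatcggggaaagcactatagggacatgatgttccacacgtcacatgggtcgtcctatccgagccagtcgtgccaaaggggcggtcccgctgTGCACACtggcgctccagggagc
Mt2 promoter: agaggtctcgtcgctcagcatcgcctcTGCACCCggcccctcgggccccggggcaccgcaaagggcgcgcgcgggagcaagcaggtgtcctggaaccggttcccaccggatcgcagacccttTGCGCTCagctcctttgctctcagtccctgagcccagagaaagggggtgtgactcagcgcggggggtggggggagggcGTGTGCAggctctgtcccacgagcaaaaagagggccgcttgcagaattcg
Slc30a1 and Mt1 hold 1 match each and Mt2 holds 3. At least 1 match is in 21.4% of the 32851 windows and at least 2 in 4.30%, and at least 1 is in 26.5% of the members' 189 windows and in 41.2% of the 17 windows of the zinc families 30 and 39. The annotation (GENCODE M21) gives Mt1 3 transcript starts over 159 bases, Mt2 2 over 196 and Slc30a1 2 over 489, so elements outside these windows are not counted. The Mt2 window ends at 94172617, before the first of its annotated starts at 94172664. The Mt1 and Slc30a1 windows end before the last starts of these genes, at 94179241 and 191907256. Bases next to those starts were not searched, so the match numbers do not compare whole promoters.

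**Figure D3:**
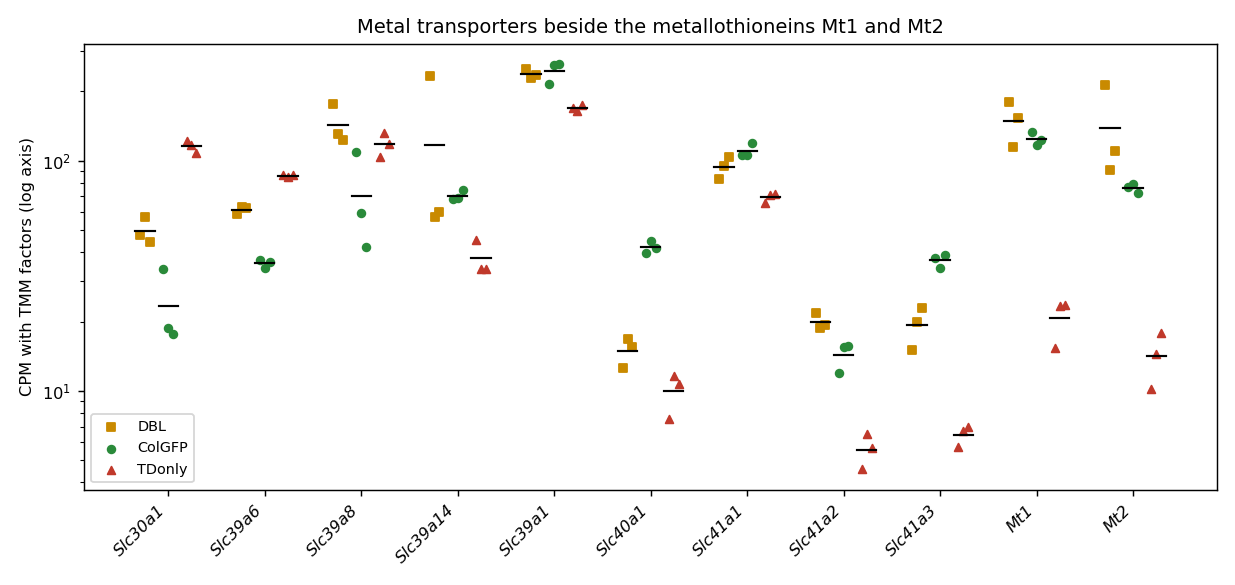
Metal transporters and the metallothioneins Mt1 and Mt2 in each library (points) with population means (bars), as CPM with TMM factors on a log axis. Slc30a1 and Slc39a6 are highest in the TDonly libraries (triangles), Mt1 and Mt2 lowest there, and DBL replicate 1 stands apart for Slc39a14 at 234 CPM.

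The zinc importers differed among themselves. Slc39a6 (ZIP6) read 58.5, 62.9 and 62.6 CPM in DBL, 37.0, 34.3 and 36.3 in ColGFP and 86.3, 84.7 and 87.0 in TDonly, with a narrow spread in each population. Its differences were 0.77 ± 0.08 (adjusted p = 0.000165), -0.49 ± 0.08 (adjusted p = 0.00105) and 1.26 ± 0.08 (adjusted p = 1.72e-06) in the same order of comparisons. Slc39a1 read 251, 229.5 and 235 CPM in DBL, 215, 259.5 and 263 in ColGFP and 169, 165 and 174 in TDonly. Slc39a7, which releases zinc from the endoplasmic reticulum, read 148, 139.8 and 143 CPM in DBL, 147, 142 and 149 in ColGFP and 111, 103 and 97.0 in TDonly. Both were lower in TDonly than in ColGFP (-0.54 ± 0.10, adjusted p = 0.0018 and -0.50 ± 0.08, adjusted p = 0.00084) and overlapped between DBL and ColGFP. Slc39a8, a zinc and manganese importer, read 177, 130.4 and 123 CPM in DBL, 109.6, 59.6 and 42.0 in ColGFP and 104, 132 and 119 in TDonly and passed in no comparison, with DBL over ColGFP at 1.03 ± 0.30 (adjusted p = 0.0523). In the 6 libraries of replicates other than 1 that difference was 1.34 (adjusted p = 9.39e-08). Slc39a14, named after its values were seen, read 234, 56.9 and 59.6 CPM in DBL, 68.5, 68.8 and 74.5 in ColGFP and 45.5, 33.7 and 33.8 in TDonly. DBL replicate 1 was far above the other libraries. Its difference between DBL and TDonly was 1.63 ± 0.48 (adjusted p = 0.0294), and 0.83 in the 6 libraries.

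Ferroportin (Slc40a1), the iron exporter, read 12.6, 16.8 and 15.6 CPM in DBL, 39.9, 44.99 and 41.9 in ColGFP and 7.56, 11.6 and 10.7 in TDonly. ColGFP was above both other populations without overlap, with DBL over ColGFP at -1.50 ± 0.17 (adjusted p = 0.000374) and TDonly over ColGFP at -2.09 ± 0.17 (adjusted p = 1.14e-05). The copper-containing ferroxidases that work with ferroportin had the same order of means, ColGFP, DBL, TDonly. Heph read 38.6, 38.2 and 36.2 CPM in DBL, 57.8, 70.0 and 71.3 in ColGFP and 28.1, 29.99 and 27.2 in TDonly, and TDonly over ColGFP was -1.22 ± 0.10 (adjusted p = 1.12e-05). Cp (ceruloplasmin) read 532, 304 and 308 CPM in DBL, 608, 692 and 699.7 in ColGFP and 60.1, 89.7 and 92.9 in TDonly, and TDonly over ColGFP was -3.04 ± 0.26 (adjusted p = 1.19e-05). Of 20 tested genes of zinc, copper and iron handling, 8 were higher and 0 lower in DBL than TDonly by edgeR, with 1 lower at an unadjusted p under 0.05, by DESeq2 and by limma-voom. Of the same genes, 3 were higher and 8 lower in TDonly than ColGFP. The magnesium transporters Slc41a2 and Slc41a3 were both low in TDonly, at 4.56, 6.49 and 5.62 and 5.69, 6.69 and 6.99 CPM. Slc41a3 was highest in ColGFP (37.8, 34.3 and 38.9 CPM, against 15.1, 19.9 and 23.0 in DBL), whereas Slc41a2 read 21.8, 18.8 and 19.3 in DBL and 12.0, 15.5 and 15.6 in ColGFP, a difference that did not pass (0.48 ± 0.16, adjusted p = 0.0833).

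The 33 mitochondrial carriers of family 25 had 3 members higher and 3 lower in DBL than ColGFP, 2 higher and 3 lower in DBL than TDonly, and 4 higher and 10 lower in TDonly than ColGFP. The ADP/ATP carriers Slc25a4 and Slc25a5 differed from each other. Slc25a4, the form known from heart and muscle, read 109.7, 102 and 95.9 CPM in DBL, 115, 116 and 117 in ColGFP and 67.8, 66.6 and 76.6 in TDonly, lower in TDonly than in both other populations (0.54 ± 0.09, adjusted p = 0.00146 for DBL over TDonly). Slc25a5 read 149.8, 137 and 128 CPM in DBL, 144, 119.9 and 121 in ColGFP and 133, 161 and 166 in TDonly and passed in no comparison. In the 6 libraries of replicates other than 1, Slc25a5 was highest in TDonly. There, TDonly over ColGFP was 0.41 (adjusted p = 0.000171) and DBL over TDonly -0.26 (adjusted p = 0.00962). Slc25a25, which exchanges ATP-magnesium for phosphate, read 113, 148 and 155 CPM in DBL, 208, 295 and 303 in ColGFP and 98.8, 125 and 118 in TDonly. ColGFP was above both other populations without overlap, with DBL over ColGFP at -0.96 ± 0.17 (adjusted p = 0.00561). Slc25a42, a coenzyme A carrier, read 15.6, 13.02 and 16.4 CPM in DBL, 48.3, 29.0 and 29.1 in ColGFP and 10.1, 11.01 and 12.5 in TDonly, again highest in ColGFP, with DBL over ColGFP at -1.24 ± 0.21 (adjusted p = 0.00348). Slc25a45 was highest in TDonly, at 19.6, 17.1 and 16.1 CPM against 10.4, 6.49 and 8.15 in DBL and 3.67, 3.15 and 3.51 in ColGFP, and TDonly over ColGFP was 2.35 ± 0.19 (adjusted p = 1.03e-05). The phosphate carrier Slc25a3 ranged from 149 to 183 CPM over the 9 libraries. It was lower in TDonly than in ColGFP (-0.22 ± 0.08, adjusted p = 0.0446), a call lost in 9 of 18 alternative fits, among them those that left out any 1 TDonly library, ColGFP replicate 2, DBL replicate 3 or DBL replicate 4 (adjusted p 0.0566 to 0.52).

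Of 10 nucleoside and vitamin transporters, 0 were higher and 2 lower in DBL than ColGFP, 3 higher and 2 lower in DBL than TDonly, and 4 higher and 4 lower in TDonly than ColGFP. In place of the 0 from edgeR, 2 were higher at an unadjusted p under 0.05, 1 by DESeq2 and 0 by limma-voom. The vitamin C transporter Slc23a2 read 128, 138 and 135 CPM in DBL, 119, 121 and 110.4 in ColGFP and 199, 203 and 192 in TDonly, highest in TDonly without overlap (0.77 ± 0.08, adjusted p = 4.6e-05 over ColGFP). The folate and thiamine carriers of family 19 were lowest there: Slc19a1 read 1.21, 1.56 and 2.37 CPM in TDonly, 5.18, 5.04 and 4.40 in DBL and 7.96, 7.68 and 9.33 in ColGFP, and Slc19a2 8.80, 7.49 and 6.81, 11.8, 12.5 and 14.2 and 20.4, 18.2 and 17.6. TDonly over ColGFP was -2.28 ± 0.25 (adjusted p = 5.5e-05) and -1.28 ± 0.14 (adjusted p = 5.92e-05). The adenosine and nucleoside transporter Slc29a1 (ENT1) read 84.2, 106 and 112 CPM in DBL, 134, 146 and 151 in ColGFP and 87.6, 103 and 108 in TDonly, with TDonly over ColGFP at -0.53 ± 0.13 (adjusted p = 0.00734). The 6 nucleotide sugar transporters, with the acetyl-CoA transporter Slc33a1 counted among them, had 0 calls by edgeR in either DBL comparison, 0 by DESeq2 and 0 by limma-voom, with 1 member lower than ColGFP and 1 higher than TDonly at an unadjusted p under 0.05. In TDonly, Slc35a5 and Slc33a1 were lower than in ColGFP. Slc33a1 read 27.0, 30.5 and 28.2 CPM in DBL, 27.6, 34.5 and 32.3 in ColGFP and 23.4, 24.7 and 21.7 in TDonly, and its call was lost with library totals (adjusted p = 0.0521).

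The members classed by family number as phosphate and sugar phosphate transporters numbered 8, of which 0 were higher and 3 lower in DBL than ColGFP, 2 higher and 1 lower in DBL than TDonly, and 3 higher and 4 lower in TDonly than ColGFP. Beside the 0 from edgeR, 1 was higher at an unadjusted p under 0.05, 0 by DESeq2 and 0 by limma-voom. Slc17a5 is in the class by its family number only, which does not state its own substrate. It was among those lower than ColGFP in both DBL and TDonly. Slc34a2 (NaPi-IIb), on chromosome 5 (GRCm38, 53038081 to 53071664, plus strand), is the apical phosphate transporter of type II alveolar epithelial cells. It read 1304, 1407 and 1383 CPM in DBL, 2341, 1035 and 694 in ColGFP and 2356, 2466 and 2375 in TDonly. TDonly was uniform and high, DBL uniform and lower, and ColGFP spread over both, with its replicate 1 at the level of TDonly. No comparison passed, with DBL over ColGFP at 0.01 ± 0.36 (adjusted p = 0.993), DBL over TDonly at -0.81 ± 0.36 (adjusted p = 0.12) and TDonly over ColGFP at 0.82 ± 0.36 (adjusted p = 0.0892). Without ColGFP replicate 1 all 3 passed, with DBL over ColGFP at 0.68, DBL over TDonly at -0.77 and TDonly over ColGFP at 1.45. In the 6 libraries of replicates other than 1 they passed as well, at 0.71, -0.75 and 1.46. Transcripts of type II cells had the same spread. Sftpc, a surfactant protein, read 4603, 4589 and 4700 CPM in DBL, 7113, 3804 and 2567 in ColGFP and 6790, 8186 and 7941 in TDonly. Lamp3 read 212, 222 and 193 CPM in DBL, 326, 169 and 107 in ColGFP and 349.7, 363 and 368 in TDonly. Abca3, a lipid transporter of lamellar bodies, read 295, 336 and 328 CPM in DBL, 368, 242 and 183 in ColGFP and 510.2, 516 and 501 in TDonly. The part of these cells in the Slc34a2 level was not tested.

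**Figure D4:**
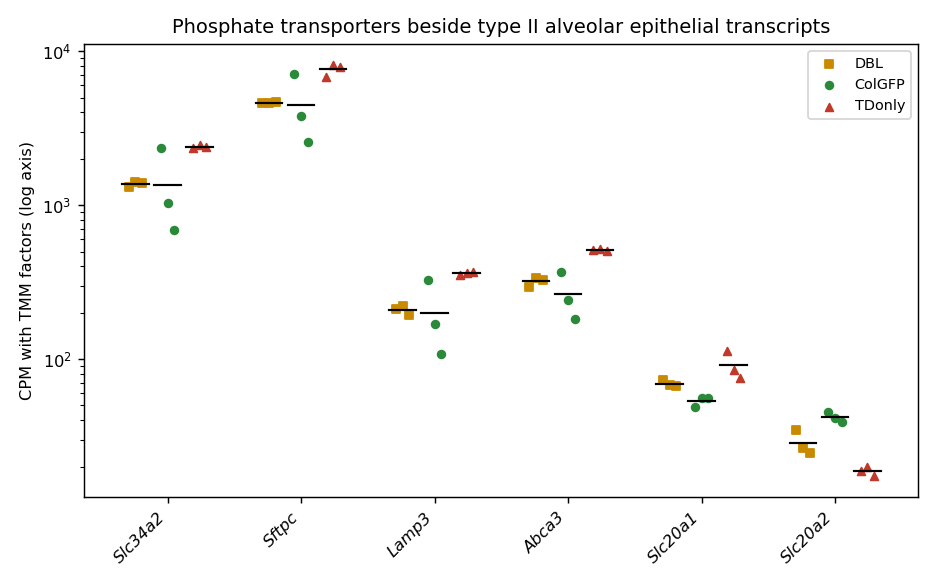
The phosphate transporters Slc34a2, Slc20a1 and Slc20a2 beside 3 transcripts of type II alveolar epithelial cells in each library (points) with population means (bars), as CPM with TMM factors on a log axis. For Slc34a2 and the 3 epithelial transcripts the ColGFP libraries (circles) spread widely, from 694 to 2341 CPM for Slc34a2, while those of Slc20a1 and Slc20a2 lie close together.

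The widespread phosphate importers of family 20 had opposite orders. Slc20a1 read 73.2, 68.1 and 67.0 CPM in DBL, 49.2, 55.7 and 55.8 in ColGFP and 113, 85.0 and 76.0 in TDonly, and TDonly over ColGFP was 0.77 ± 0.14 (adjusted p = 0.00152). Slc20a2 read 34.7, 26.5 and 24.5 CPM in DBL, 45.7, 41.4 and 38.98 in ColGFP and 18.8, 19.9 and 17.3 in TDonly, and TDonly over ColGFP was -1.17 ± 0.14 (adjusted p = 0.000111). TDonly was thus highest for the former and lowest for the latter, without overlap with ColGFP in either. The exons of both genes overlap a gene on the other strand. Slc37a3, of the sugar phosphate family, read 54.7, 63.3 and 59.2 CPM in DBL, 55.9, 67.6 and 75.4 in ColGFP and 40.1, 37.9 and 36.8 in TDonly, lower in TDonly than in both other populations (0.63 ± 0.12, adjusted p = 0.00296 for DBL over TDonly).

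The class of organic ion, peptide, urea and vesicular amine transporters held 8 members, all of families 15 and 22, and none of the urea or vesicular amine families. Of these, 0 were higher and 2 lower in DBL than ColGFP, 2 higher and 2 lower in DBL than TDonly, and 3 higher and 3 lower in TDonly than ColGFP. Where edgeR called 0, 1 was higher at an unadjusted p under 0.05, 1 by DESeq2 and 0 by limma-voom. Slc22a3 (OCT3), a transporter of organic cations and monoamines, read 6.86, 10.4 and 10.1 CPM in DBL, 46.8, 41.3 and 36.4 in ColGFP and 0.857, 4.004 and 3.60 in TDonly. ColGFP was high, DBL between and TDonly low without overlap, with DBL over ColGFP at -2.19 ± 0.40 (adjusted p = 0.00561) and TDonly over ColGFP at -3.88 ± 0.44 (adjusted p = 7.39e-05). Its exons overlap Plg on the other strand, and how reads in the shared stretch were counted is not known. Slc22a23, a family member of unknown substrate, read 62.5, 64.9 and 65.3 CPM in DBL, 55.8, 34.6 and 20.6 in ColGFP and 138, 146 and 126 in TDonly, highest in TDonly (1.89 ± 0.29, adjusted p = 0.000476 over ColGFP), and its ColGFP libraries spread from 20.6 to 55.8 CPM. Slc22a3 and Slc6a2, which both take up noradrenaline, thus had opposite orders of the populations.

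Transporters outside the solute carrier symbols were counted from lists. Of 36 tested ATP-binding cassette transporters, 10 were higher and 12 lower in TDonly than ColGFP, 12 higher and 8 lower in DBL than TDonly, and 5 higher and 3 lower in DBL than ColGFP. The drug exporter Abcb1a read 61.1, 50.6 and 45.4 CPM in DBL, 17.6, 12.2 and 11.9 in ColGFP and 151, 136 and 148 in TDonly. The cholesterol exporter Abcg1 read 65.0, 44.8 and 49.2 CPM in DBL, 22.2, 23.5 and 23.6 in ColGFP and 161, 132 and 142 in TDonly. Both were highest in TDonly. Of 7 tested aquaporins, 4 were higher in TDonly than ColGFP. The water channel Aqp1 read 975, 1073 and 1034 CPM in DBL, 257, 282 and 234 in ColGFP and 1892, 2340 and 2366 in TDonly. Of 8 tested Slco genes, 2 were higher and 2 lower in TDonly than ColGFP. The prostaglandin transporter Slco2a1 read 536, 485 and 501 CPM in DBL, 178, 112 and 97.4 in ColGFP and 1289, 1287 and 1312 in TDonly. All 4 of these genes were ordered TDonly, DBL, ColGFP without overlap, with TDonly over ColGFP between 2.65 and 3.38 on the log2 scale.

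Of 17 tested genes of the amino acid response, many of them targets of ATF4, 6 were higher and 0 lower in DBL than TDonly by edgeR, with 1 lower at an unadjusted p under 0.05, by DESeq2 and by limma-voom. Of the same genes, 2 were higher and 8 lower in TDonly than ColGFP. Atf5 read 115, 133 and 152 CPM in DBL, 74.5, 139.5 and 141 in ColGFP and 20.6, 28.5 and 35.8 in TDonly, with DBL over TDonly at 2.24 ± 0.27 (adjusted p = 0.000328). Aldh18a1, an enzyme of proline synthesis, read 55.3, 51.5 and 56.7 CPM in DBL, 28.0, 47.5 and 51.9 in ColGFP and 20.6, 13.9 and 13.4 in TDonly, with DBL over TDonly at 1.77 ± 0.24 (adjusted p = 0.000524). Of 17 tested enzymes of glutamine, glutathione and ornithine, 5 were higher and 4 lower in TDonly than ColGFP. They included Nos3, the endothelial nitric oxide synthase, highest in TDonly at 116, 86.7 and 86.2 CPM, and Odc1, the first enzyme of polyamine synthesis, highest in ColGFP at 239.8, 375 and 391 CPM.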

How the data were processed

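RNA-seq of 9 libraries, 3 for each sorted lung cell population, was analysed from the raw read counts per gene symbol that the authors deposited. The submitters' processing notes name cutadapt for trimming, TopHat for alignment, the mm10 build and HTSeq for counting. Tool versions, annotation and strand setting: not given in the sources used here. Per the labels' protocols, libraries were made from 1 µg of total RNA of flash-frozen lungs, and how this applies to sorted cells is not stated. Populations and replicate numbers came from the sample titles, and columns were matched by the sample number in the labels. Another 3 columns of the table belong to none of these samples and were left aside.

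The counts were not normalised before deposit. Genes were kept by filterByExpr (minimum count 10, 15550 genes) and fitted with 1 mean per population with TMM scaling in edgeR 4.0.16 (R 4.3.3), leaving 6 residual degrees of freedom. Each contrast was tested two-sided by the quasi-likelihood test and adjusted over all genes tested, with a threshold of 0.05. Standard errors are the log2 fold change over the square root of F. In simulated counts for DBL against ColGFP, the test recovered 43 of 100 genes with a 2-fold change, 83 of 100 with a 4-fold change and 7 of 15350 without change, so a member that did not pass may still differ. Alternatives were DESeq2 1.42.0, voom in limma 3.58.1, other scalings, no filter, other sets of libraries or members, the replicate number as a block and the sample number series as a term.

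All members matched genes of GENCODE M21 (GRCm38), 1 through a synonym, and 50 have exons overlapping another gene. Not every overlap of a named member, such as those of Slc12a4 and Slc16a9, is given above. Exon lengths gave the per-kilobase levels. Promoters came from RefSeq (GRCm38.p6), with entries for 144 members. Substrate classes were assigned by family. Members, lists and classes were chosen with earlier results of these data known. Named genes were, per comparison and direction, the 6 largest changes among members that passed, did not overlap and reached 10 CPM, and, per class, up to 4 by level and 4 by p. Added to these were members that DBL had outside both populations, the 2 on each side of the level, and up to 4 passing genes of each list by p. Bsg, Slc39a14, Slc4a1, Slc4a4, Slc43a2, Sftpc, Lamp3, Abca3 and the sort genes were named outside this rule.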

Additional observations from a re-analysis of the deposited data

How the results depend on the processing

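The counts of members that differed were compared under other fits. With the replicate number as a block, DBL had 11 members higher and 22 lower than ColGFP, where the reported counts were 18 and 34. Only DBL has a replicate 4, so that library was alone in its block and could not add to any comparison. No DBL library has the number 2, and the block terms left fewer residual degrees of freedom than the main fit. The numbers do not show that the libraries are paired, because correlations of same-numbered libraries ranged from 0.0156 to 0.5272 and not every library correlated best with its own number. In the sets of consecutive sample numbers (replicates 1, then DBL 3 with the others' 2, then DBL 4 with the others' 3), correlations were 0.5272, 0.3058 and 0.3397 for DBL with TDonly, 0.0926, 0.0143 and 0.1223 for DBL with ColGFP and 0.1021, 0.045 and 0.0792 for ColGFP with TDonly. The labels do not say that these sets share a day, and no fit with them as a block was run. In the 6 libraries of replicates other than 1, 40 members were higher in DBL than ColGFP and 43 lower than TDonly, against 18 and 28. Leaving out 1 library at a time gave 12 to 24 members higher and 21 to 35 lower in DBL than ColGFP, 43 to 62 and 18 to 32 for DBL against TDonly, and 34 to 49 and 66 to 79 for TDonly against ColGFP. The count lower than ColGFP was 21 without DBL replicate 1, 22 without DBL replicate 3, 21 without DBL replicate 4 and 21 without ColGFP replicate 2, and the count lower than TDonly was 18 without DBL replicate 4. The cause of these shifts was not tested, and the shares of all genes called in these fits were not counted. DESeq2, limma-voom, DESeq2 size factors, no filter, the sample number series as a term and fits of the 2 groups compared kept each count within 1.5 times. Library totals did so too. Members numbered 192 with TMM-scaled CPM, 166 at 10 CPM and 179 by the mean over all libraries.

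Of 4752 log2 fold changes of the 88 named members under these alternatives, 4458 kept their side of the threshold, 164 no longer passed, 130 newly passed and 0 reversed among called values. Values that passed in neither fit are among the 4458 whatever their direction. Values of a few CPM rest on fewer counts than the others.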
